A study of Mus musculus with 6 samples.

Results

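The genes described here encode the machinery that holds, readies and fuses synaptic vesicles at nerve terminals. They are 36 synaptic vesicle, SNARE and active zone genes given by name. Every non-control probe whose transcript accession belongs to 1 of these genes was used, which gave 58 probes for 34 genes out of 41174 probes on the array. No probe was matched to Unc13a, which encodes a vesicle priming factor, or to Sv2c, which encodes a vesicle glycoprotein, and neither has a value here. All 58 probes were tested, among 26248 tested probes in all.

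Whole dorsal root ganglia, which hold the cell bodies of sensory neurons wrapped in glia, came from 3 wild-type (WT) mice, described as littermate controls, and from 3 dt27J mice. The dt27J allele is a mutation of Dst, the gene of the cytoskeletal linker dystonin. All 6 animals were on the C57BL/6 background, were taken at postnatal day 4, a stage that the labels place before the phenotype, and came from 2 litters. The labels name no treatment for either genotype and do not say how many mutant copies the dt27J animals carry. No sorting of cells is named, so each array measured the RNA of neurons, glia and every other cell in the dissected piece. Each animal's RNA was hybridised to 1 single-colour array, so the errors below are between animals. The labels put WT 1, WT 2, dt27J 1 and dt27J 2 on the first of 2 dates, and WT 3 and dt27J 3 on the second. Neither the labels nor the design text says if a date is also a litter.

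A nerve terminal stores transmitter in vesicles that synapsins hold in a cluster. Rab3 proteins and the active zone scaffolds RIM, bassoon and piccolo bring vesicles to the release site, priming factors ready them, and SNARE proteins on the vesicle and the plasma membrane pull both membranes together while complexins control the final step. A sensory neuron makes these proteins in its cell body in the ganglion and sends them along its axon to terminals in the spinal cord and the periphery, so the transcripts are in the ganglion although most of its synapses are elsewhere.

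The stretch before the transcription start is shown for Syn1 and Cplx1, the genes called lower in dt27J, and for Rph3a, another gene with a match to the RE1 half-sites before its start. The sequences are from RefSeq, on GRCm38.p6, and each gives the 250 bases before the start on the gene's own strand, 5′ to 3′. Capitals mark letters found by a search of both strands for 3 motifs: the half-sites AGCACC and GGACAG of the RE1 element, bound by the neuronal gene repressor REST, 2 bases apart with at most 1 mismatch in all, the cyclic AMP response element TGACGTCA, and the GC box GGGCGG. The Syn1 stretch lies at chrX:20920919-20921168 on the minus strand, with the RE1 half-sites at -229 to -216 and the cyclic AMP response element at -159 to -152 from the start.
Syn1: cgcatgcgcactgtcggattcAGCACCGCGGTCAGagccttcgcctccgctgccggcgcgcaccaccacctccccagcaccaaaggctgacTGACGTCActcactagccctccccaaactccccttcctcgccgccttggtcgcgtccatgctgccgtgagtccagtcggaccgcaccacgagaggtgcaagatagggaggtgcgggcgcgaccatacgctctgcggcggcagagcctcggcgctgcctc
The Cplx1 stretch lies at chr5:108550028-108550277 on the minus strand, with a GC box on the opposite strand at -11 to -6.
Cplx1: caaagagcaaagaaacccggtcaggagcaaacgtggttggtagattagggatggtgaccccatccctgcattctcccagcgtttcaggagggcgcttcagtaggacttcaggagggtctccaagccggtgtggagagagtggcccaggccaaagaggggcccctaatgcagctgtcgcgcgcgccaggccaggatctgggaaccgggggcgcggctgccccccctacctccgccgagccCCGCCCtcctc
The Rph3a stretch lies at chr5:121009539-121009788 on the minus strand, with a GC box at -122 to -117 and RE1 half-sites at -92 to -79, both on the opposite strand. The RE1 matches of Syn1 and Rph3a each have 1 mismatch and are not the same letters.
Rph3a: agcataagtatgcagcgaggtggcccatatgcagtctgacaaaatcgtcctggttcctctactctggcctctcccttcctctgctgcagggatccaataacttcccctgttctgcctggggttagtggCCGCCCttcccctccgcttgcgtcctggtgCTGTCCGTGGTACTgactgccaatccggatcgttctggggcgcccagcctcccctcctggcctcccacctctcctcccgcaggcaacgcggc
Windows of 300 bases, which add the 50 bases after the start, were given for 30 of the 36 genes, with 40 windows in all. RE1 half-sites were found in 3 of the 40 windows (7.5%), those of Syn1, Rph3a and the glutamate transporter gene Slc17a6, and in 116 of 32851 windows of all genes (0.353%). The cyclic AMP response element was found in 2 of the 40 windows (5%), those of Syn1 and Napa, and in 588 of all windows (1.79%). The GC box was found in 24 of the 40 windows (60%) and in 11714 of all windows (35.7%). These matches describe the letters only. The arrays did not measure binding.

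Values below are log2 signals with the 75th percentile of the same array subtracted, and differences are dt27J minus WT with the standard error of the limma fit. Because probes differ in how brightly they bind, a value is compared between animals and never between genes. A probe is called where its Benjamini-Hochberg adjusted p over all 26248 tested probes is under 0.05. Of the 58 probes, 2 were called lower (3.45%) and 0 higher, against 1.88% of all tested probes called lower, 1.31% called higher and 3.19% in either direction. The called share of the release genes was therefore near that of the array as a whole.

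Most release genes stood lower in dt27J ganglia without passing that threshold. The difference was negative for 49 of 58 probes (84.5%), against 53.6% of all tested probes, and its median was -0.66 against -0.05. Taking each gene by its brightest probe, 28 of 34 genes were negative and 6 were positive, with a median of -0.70 against -0.03 over all 13675 named genes. Every dt27J animal lay below every WT animal for 23 probes of 20 genes (39.7%), against 16% of all tested probes. For 0 probes did every dt27J animal lie above every WT animal, against 12.8%. At an unadjusted p under 0.05, 25 probes were lower (43.1%) and 1 was higher (1.72%), against 15.7% and 12% of all tested probes. These counts hold 1 Bsn probe that entered the test through WT alone and the Doc2b probe, which entered through dt27J alone. Over the other 56 probes, above background on all 6 arrays, 48 were negative (85.7%), 22 had every dt27J animal below every WT animal (39.3%) and 24 were lower at an unadjusted p under 0.05 (42.9%), against 52.7%, 15.1% and 14.1% of the 24240 probes that met the same condition. The median of the 34 genes, measured from the WT mean of each, was -0.08, 0.01 and 0.01 in WT 1, WT 2 and WT 3, and -0.96, -0.70 and -0.49 in dt27J 1, dt27J 2 and dt27J 3. The genotypes did not overlap in this median. Over all 13675 named genes the same median was -0.002, 0.008 and 0.011 in WT 1, WT 2 and WT 3. It was 0.023, 0.033 and -0.124 in dt27J 1, dt27J 2 and dt27J 3.

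**Figure D1:**
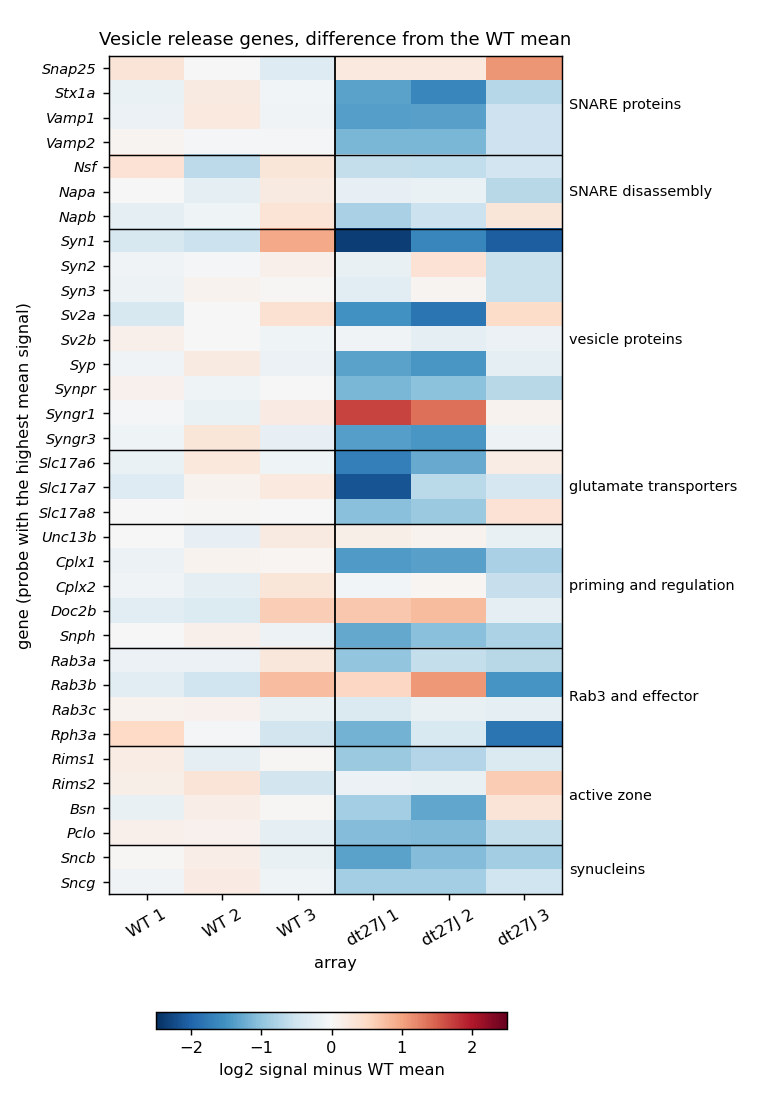
Log2 signal of each of the 34 genes (1 row a gene, brightest probe) on each of the 6 arrays (columns), as the difference from that gene's WT mean, with blue below and red above it. Most rows are blue in dt27J 1 and dt27J 2 and paler in dt27J 3, where the medians over genes are -0.96, -0.70 and -0.49.

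Syn1 encodes synapsin I, the phosphoprotein that tethers vesicles to one another and to actin, and fell in dt27J. Its brighter probe, A_52_P482360, stood at 4.21, 4.06 and 5.55 in WT 1, WT 2 and WT 3, and at 2.25, 2.97 and 2.54 in dt27J 1, dt27J 2 and dt27J 3. The genotypes did not overlap, and WT 3 was the highest of the 6. The difference was -2.02 (SE 0.36, adjusted p 0.0472), which is 4.05-fold lower (95% interval 2.23 to 7.38). The other Syn1 probe, A_51_P420684, stood at 0.23, 0.89 and 0.28 in the WT animals and at -1.04, -0.73 and -0.30 in the dt27J animals. These values did not overlap either, with a difference of -1.16 (SE 0.29, adjusted p 0.0679).

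Cplx1 encodes complexin I, which binds the assembled SNARE complex and governs its final fusion step, and was the other gene called lower. Its probe stood at 4.70, 4.93 and 4.88 in the WT animals and at 3.42, 3.47 and 4.03 in the dt27J animals. All 3 dt27J animals were below all 3 WT animals, with dt27J 3 the nearest to them. The difference was -1.20 (SE 0.21, adjusted p 0.0472), which is 2.29-fold lower (95% interval 1.62 to 3.24). Both genes kept their sign in every alternative run, but both adjusted p values were above 0.05 without the date term (0.0643 for Syn1 and 0.063 for Cplx1), without the filter on dim probes (0.102 and 0.0933) and when WT 1, WT 2, dt27J 1 or dt27J 2 was left out (0.0528 to 0.248 for Syn1, 0.107 to 0.248 for Cplx1). That of Cplx1 was also above it after quantile normalization (0.0586), and over all alternatives the adjusted p ran from 0.0115 to 0.50 for Syn1 and from 0.0116 to 0.634 for Cplx1.

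Among the SNARE proteins, 3 of 4 genes were lower in every dt27J animal than in any WT animal and none was called. Stx1a encodes syntaxin 1A, a SNARE of the plasma membrane. It stood at 1.06, 1.45 and 1.15 in the WT animals and at -0.11, -0.41 and 0.50 in the dt27J animals. This is a difference of -1.22 (SE 0.26, adjusted p 0.0556). Vamp1 and Vamp2 encode the synaptobrevins, the SNAREs of the vesicle. Vamp1 stood at 2.44, 2.84 and 2.50 in the WT animals and at 1.22, 1.25 and 2.08 in the dt27J animals (difference -1.08, SE 0.27, adjusted p 0.068). The brightest Vamp2 probe stood at 3.89, 3.78 and 3.79 in the WT animals and at 2.67, 2.67 and 3.30 in the dt27J animals (difference -0.94, SE 0.22, adjusted p 0.0617). All 3 Vamp2 probes separated the genotypes, with differences between -1.09 and -0.94. Snap25, the other plasma membrane SNARE, went the other way, at -0.51, -0.81 and -1.15 in the WT animals and -0.58, -0.58 and 0.28 in the dt27J animals. Its genotypes overlapped and its difference of 0.53 (SE 0.31) had an adjusted p of 0.31, and it was 0.11 with normexp background correction and 0.08 on the first date alone.

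The genes that take SNARE complexes apart after fusion had negative differences, none of them called. Nsf, the ATPase of that step, differed by -0.56 and -0.06 on its 2 probes, with adjusted p values of 0.261 and 0.915, and the former was -0.30 without WT 1 and -0.88 without WT 2. Napa, which encodes the adaptor alpha-SNAP, differed by -0.82 (SE 0.21, adjusted p 0.0707) on the probe where the genotypes did not overlap and by -0.35 on the other. Napb, the neuronal beta-SNAP, differed by -0.35.

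**Figure D2:**
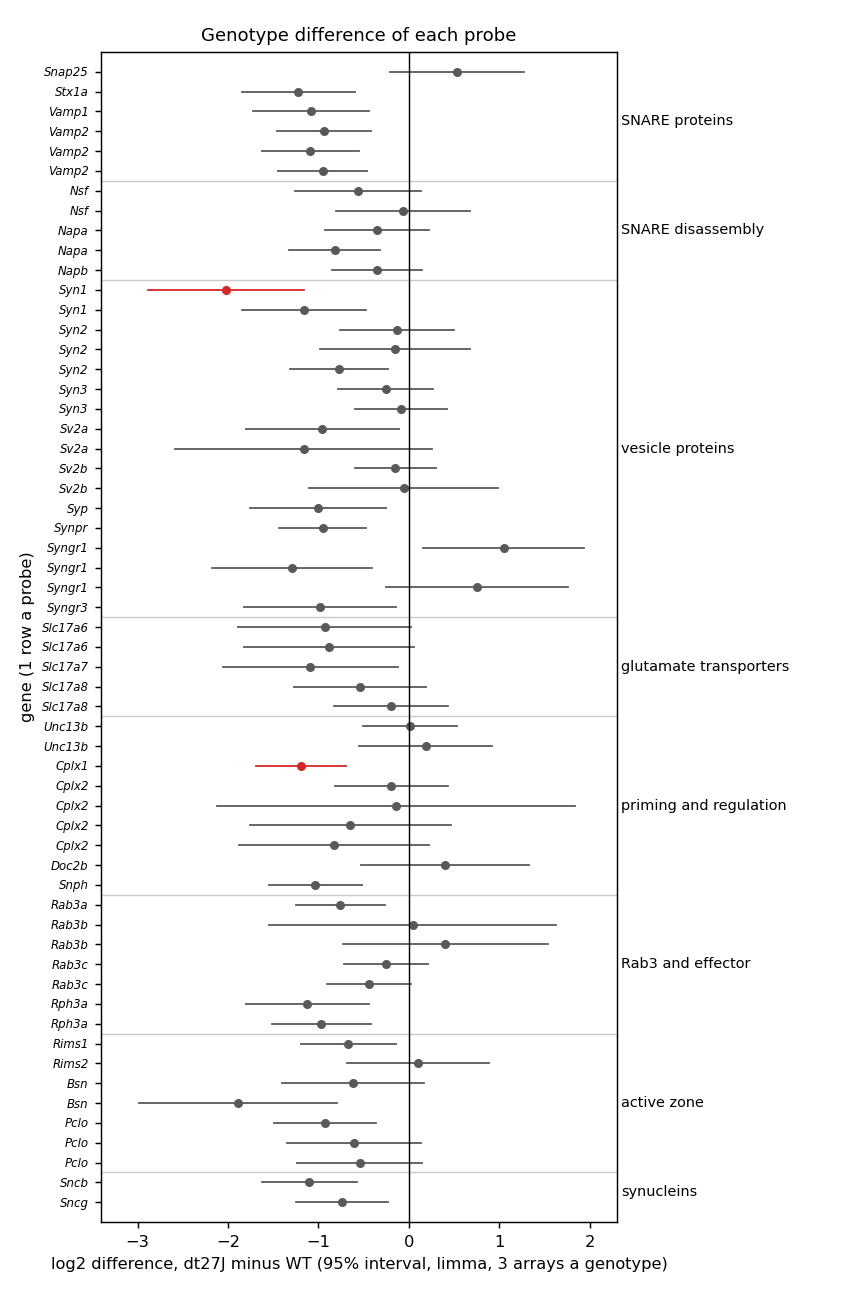
Difference dt27J minus WT of each of the 58 probes on the log2 scale, with its 95% interval from the limma fit on 3 arrays a genotype, grouped by role, and with the 2 called probes in red. Points left of 0 are lower in dt27J (49 probes), and 9 points lie right of 0, among them 2 of the 3 Syngr1 probes.

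Among the other proteins of the vesicle, Synpr, Syp and Sv2a had differences near -1 and the remaining synapsins did not. Synpr, which encodes the vesicle membrane protein synaptoporin, stood at 5.04, 4.82 and 4.94 in the WT animals and at 3.79, 3.92 and 4.25 in the dt27J animals. The genotypes did not overlap (difference -0.95, SE 0.20, adjusted p 0.055). Syp encodes its relative synaptophysin, a widely used marker of synaptic vesicles. It stood at 1.77, 2.07 and 1.70 in the WT animals and at 0.51, 0.40 and 1.61 in the dt27J animals, so that dt27J 3 nearly reached the lowest WT animal (difference -1.01, SE 0.32, adjusted p 0.103). Sv2a encodes a vesicle glycoprotein that is the target of the drug levetiracetam. Its brighter probe stood at -0.10, 0.31 and 0.67 in the WT animals and at -1.22, -1.53 and 0.75 in the dt27J animals. Here dt27J 3 was the highest of the 6 while the other dt27J animals were the lowest (difference -0.96, SE 0.35, adjusted p 0.143). Synapsin II (Syn2) differed by -0.13, -0.15 and -0.77 on its 3 probes, and only the last of these separated the genotypes (SE 0.23, adjusted p 0.0894). Synapsin III (Syn3) differed by -0.26 and -0.09 and Sv2b by -0.15 and -0.06, with overlapping genotypes on each probe.

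Syngr1, which encodes the vesicle protein synaptogyrin 1, was the only gene of the 18 with several probes whose probes differed in sign. Probe A_51_P270741, listed for transcript NM_009303, stood at 1.90, 1.77 and 2.14 in the WT animals and at 3.63, 3.30 and 2.02 in the dt27J animals. The values of dt27J 1 and dt27J 2 were above all WT values and dt27J 3 was among them (difference 1.05, SE 0.37, adjusted p 0.133). Probe A_52_P239320, listed for transcript NM_207708 of the same gene, stood at 1.14, 1.61 and 1.003 in the WT animals and at -0.43, -0.53 and 0.84 in the dt27J animals. This was the opposite order, with every dt27J animal below every WT animal (difference -1.29, SE 0.37, adjusted p 0.087). A further NM_009303 probe, A_51_P270733, had a difference of 0.76 (SE 0.42, adjusted p 0.288). Within each array, the first probe minus the second was 0.76, 0.16 and 1.13 in the WT animals and 4.06, 3.83 and 1.18 in the dt27J animals. The mean of this within-array difference was 0.68 ± 0.49 (SD, n = 3) in WT and 3.02 ± 1.60 (SD, n = 3) in dt27J. A two-sided exact permutation test gave p = 0.1, the smallest that 3 animals against 3 allow, so this test could not reach 0.05. The probes were picked for their opposite signs in these same data, and the test left out the date. With A_51_P270733 in place of the first probe the within-array difference was -1.94, -2.54 and -1.31 in the WT animals and 1.29, 0.75 and -1.70 in the dt27J animals, with overlap through dt27J 3, and the same exact permutation test gave p = 0.2. Syngr3, a related gene, differed by -0.99 (SE 0.35, adjusted p 0.134).

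**Figure D3:**
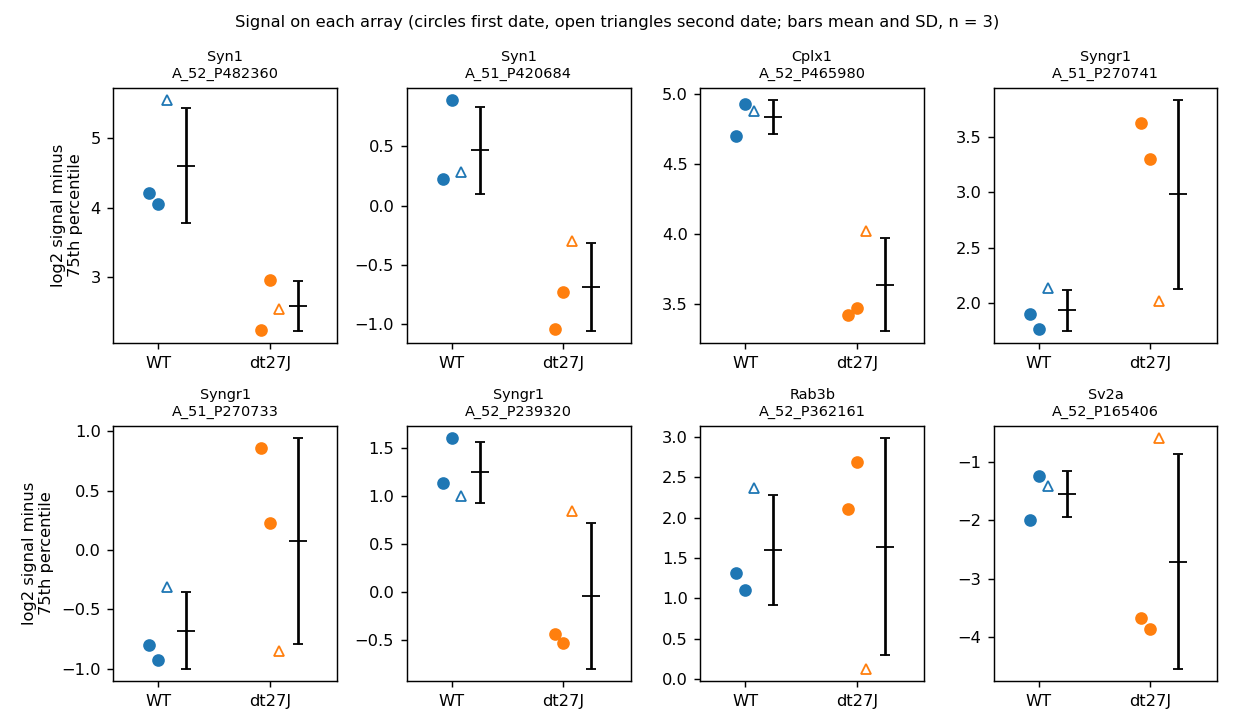
Signal of 8 probes on each array, in log2 units relative to that array's 75th percentile, with filled circles for the first date, open triangles for the second, and bars for the mean and SD of 3 arrays a genotype. The Syn1 and Cplx1 panels separate the genotypes, the 3 Syngr1 panels run in opposite directions, and in the Rab3b and Sv2a panels dt27J 3 stands apart from dt27J 1 and dt27J 2.

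The vesicular glutamate transporters, which fill vesicles with the main transmitter of sensory neurons, were lower in dt27J 1 and dt27J 2 and, for 2 of 3 genes, not in dt27J 3. Slc17a6 (VGLUT2) stood at 2.29, 2.72 and 2.34 in the WT animals and at 0.74, 1.18 and 2.63 in the dt27J animals (difference -0.93, SE 0.40, adjusted p 0.19). The genotypes overlapped through dt27J 3. Slc17a7 (VGLUT1) stood at -3.31, -2.89 and -2.75 in the WT animals and at -5.15, -3.66 and -3.40 in the dt27J animals, without overlap (difference -1.09, SE 0.41, adjusted p 0.145). Its difference was -0.31 with normexp, -0.39 with normexp when extreme backgrounds were replaced, -0.55 in the authors' values and -0.60 without dt27J 1. Slc17a8 (VGLUT3) differed by -0.54 and -0.20 on its 2 probes, with overlapping genotypes.

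Beside Cplx1, Snph was the only gene of priming and regulation that separated the genotypes. It encodes syntaphilin, which anchors mitochondria to microtubules in axons and binds syntaxin. The Snph probe stood at 2.46, 2.58 and 2.32 in the WT animals and at 1.17, 1.40 and 1.67 in the dt27J animals (difference -1.04, SE 0.22, adjusted p 0.0542). Cplx2, which encodes the related complexin II, differed by -0.19, -0.14, -0.65 and -0.83 on its 4 probes, all with overlapping genotypes. Unc13b, a priming factor, differed by 0.02 and 0.19. Doc2b, a calcium-binding regulator of release, differed by 0.40 (SE 0.39, adjusted p 0.53). Its probe was well above background on 1 WT array and on all 3 dt27J arrays, so its WT level is poorly measured.

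The small GTPase Rab3a, which marks vesicles for docking, stood at 5.74, 5.74 and 6.16 in the WT animals and at 4.90, 5.27 and 5.19 in the dt27J animals. The genotypes did not overlap (difference -0.76, SE 0.21, adjusted p 0.0784). Rph3a encodes rabphilin, an effector that binds Rab3 on the vesicle. Its brighter probe stood at 1.21, 0.67 and 0.25 in the WT animals and at -0.46, 0.33 and -1.11 in the dt27J animals, so that dt27J 2 overlapped WT 3 (difference -1.12, SE 0.29, adjusted p 0.0699, and -0.71 with normexp). On the other Rph3a probe there was no overlap (difference -0.97, SE 0.23, adjusted p 0.0636). Rab3c differed by -0.26 and -0.44, with adjusted p values of 0.424 and 0.199. Rab3b had no steady direction. Its brighter probe stood at 1.32, 1.11 and 2.37 in the WT animals and at 2.11, 2.69 and 0.12 in the dt27J animals, where dt27J 3 was the lowest of all (difference 0.04, SE 0.66, adjusted p 0.974).

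Of the active zone scaffolds, Pclo (piccolo) and Rims1 (RIM1) separated the genotypes on their brightest probe. Pclo stood at 0.59, 0.57 and 0.23 in the WT animals and at -0.63, -0.63 and -0.14 in the dt27J animals (difference -0.93, SE 0.24, adjusted p 0.0703). Its other 2 probes differed by -0.61 and -0.55, with overlap. The Rims1 difference was -0.67 (SE 0.22, adjusted p 0.112) and -0.36 with normexp, and that of Rims2 (RIM2) was 0.10. Bsn, which encodes bassoon, differed by -0.62 on its brighter probe, with dt27J 3 above every WT animal. Its dimmer probe, A_51_P162718, was clear of background on each of the 3 WT arrays and on none of the dt27J arrays, so it entered the test through WT alone and its level in dt27J is only a bound. With dt27J set at that bound the probe was 2.68-fold lower, from a WT mean of -4.22 to a bound of -5.65. The measured dt27J mean was -6.11. No test is given, since a low dt27J value was favoured by how the probe entered. The bound takes, on each dt27J array, the lowest signal among probes well above background where that is higher than the probe's own. Probes not above background can lie higher than that lowest signal, so 2.68 is not a firm minimum.

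The synucleins, small proteins of the nerve terminal that bind vesicle membranes, were lower in all dt27J animals. Sncb (beta-synuclein) stood at -2.49, -2.35 and -2.71 in the WT animals and at -3.85, -3.61 and -3.39 in the dt27J animals (difference -1.10, SE 0.22, adjusted p 0.0521). Sncg (gamma-synuclein) stood at 4.22, 4.51 and 4.19 in the WT animals and at 3.45, 3.45 and 3.80 in the dt27J animals (difference -0.74, SE 0.21, adjusted p 0.0877). Neither gene's genotypes overlapped, and neither was called. With normexp the Sncb difference was -0.49, and in the authors' values it was -0.73.

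The size of the difference was not the same on both dates. Within the first date, with 2 animals a genotype, 47 of 58 probes were negative with a median of -0.83, and within the second, with 1 animal a genotype, 42 were negative with a median of -0.45. The medians of all tested probes were -0.01 and -0.13. For 32 probes of 25 genes the difference was negative within both dates (55.2%, against 32.3% of all tested probes), and 1 probe, that of Snap25, was positive within both (1.72%, against 24.5%). The brighter Syn1 probe differed by -1.52 within the first date and by -3.01 within the second. The other Syn1 probe went the opposite way between the dates, at -1.45 and -0.59. Cplx1 differed by -1.37 and -0.85. By role, the median over genes was nearer 0 within the second date for the SNARE proteins (-1.29 and -0.45 on the first and the second date), the vesicle proteins (-1.08 and -0.12), the active zone genes (-0.94 and -0.04) and the synucleins (-1.11 and -0.53). It was farther below 0 within the second date for SNARE disassembly (-0.46 and -0.77) and for Rab3 and Rph3a (-0.51 and -1.17). It changed sign for the glutamate transporters (-1.31 and 0.29) and, the other way, for priming and regulation (0.15 and -0.85). The priming and regulation median is over 5 genes and depends on Doc2b (1.04 and -0.86), whose WT level is poorly measured. Cplx1 and Snph (-1.23 and -0.65) were negative within both dates. The genotype by date interaction passed an adjusted p of 0.05 for 1 of the 58 probes (1.72%), against 0.831% of all tested probes. It was the brighter Rab3b probe, with a difference of 1.19 within the first date and of -2.25 within the second (interaction -3.44, adjusted p 0.0449). At an unadjusted p under 0.05 the interaction passed for 27 probes of 19 genes (46.6%), against 27.5% of all tested probes. The dimmer Sv2a probe differed by -2.15 and 0.83, with an interaction of adjusted p 0.0555. As the second date rests on 1 animal a genotype, a date and an animal cannot be told apart there.

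**Figure D4:**
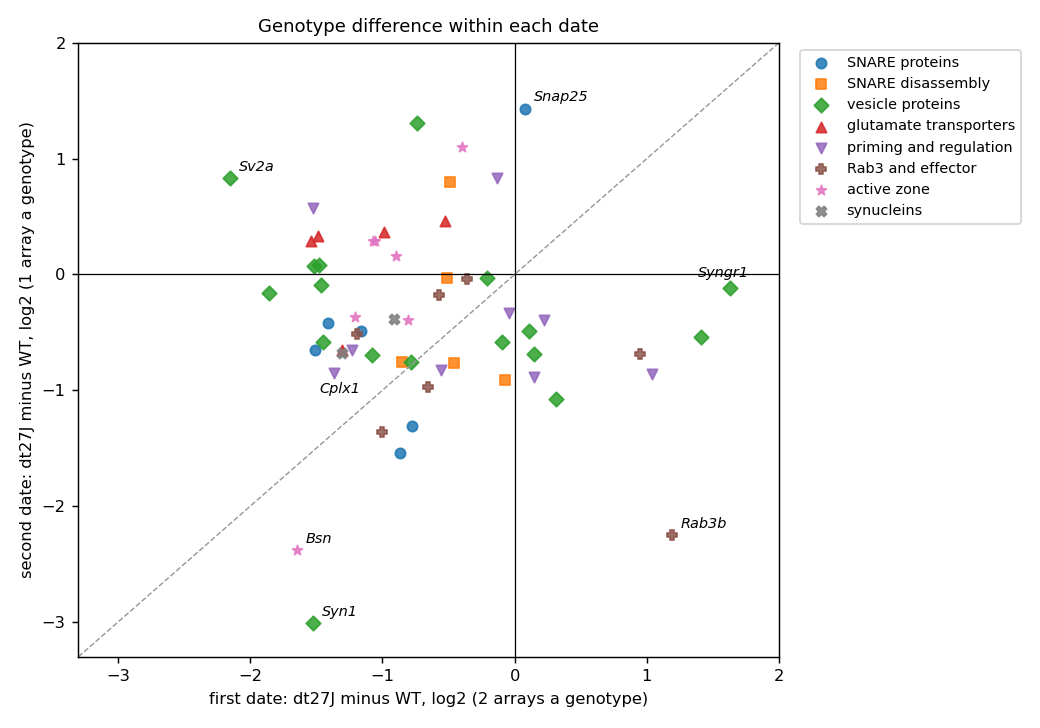
Difference dt27J minus WT of the 58 probes within the first date (horizontal, log2, 2 arrays a genotype) against the second date (vertical, log2, 1 array a genotype), with marker shape and colour for role and a dashed line where both are equal. The lower left region holds the 32 probes negative on both dates, and Rab3b, at 1.19 and -2.25, lies far to the lower right.

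Other genes of the release pathway were taken from a list of 56 names, of which 49 genes with 81 probes were tested. By their brightest probe 38 of the 49 were negative and 11 positive, with a median of -0.42. Of the 81 probes 1 was called lower, a probe of Nrxn2, which encodes the presynaptic adhesion protein neurexin 2 (difference -1.92, SE 0.35, adjusted p 0.0472), and the other Nrxn2 probe differed by -1.34 (adjusted p 0.0577). None was called higher. The smallest p values among positive differences belonged to probes of Snap23 and Vamp3. Snap23 is the SNARE that takes the place of Snap25 in many non-neuronal cells. It differed by 1.52 and 1.54 on 2 dimmer probes (adjusted p 0.0659 and 0.0664) and by 0.72 on its brightest (adjusted p 0.0725). Vamp3, a vesicle SNARE found in most cell types, differed by 0.76 (adjusted p 0.0695).

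Markers of neurons and of other cells are given beside these values. Over all named genes 7171 of 13675 were negative, 208 were called lower and 184 higher. Of 16 sensory neuron markers 15 had a probe and were tested, and 14 of these were negative and 3 called lower, with a median of -0.75, close to the -0.70 of the release genes. The sensory neuron list stood at -0.10, 0.08 and 0.08 in the WT animals and at -1.04, -0.80 and -0.50 in the dt27J animals, as medians from the WT mean, and its summed level lay between 258 and 293 times the 75th percentile in WT and between 151 and 237 in dt27J. That of the release genes lay between 273 and 340 in WT and between 174 and 197 in dt27J. Such a sum is weighted to the brightest probes of a list, such as Calca among sensory neuron markers and Uchl1 among pan-neuronal genes. All 11 tested pan-neuronal genes were negative and 0 were called by limma (3 at an unadjusted p under 0.05), with a median of -0.45 and summed levels of 860 to 972 in WT and 659 to 828 in dt27J. In whole ganglia, fewer neurons and less of these transcripts in each neuron cannot be told apart.

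Markers of neighbouring tissues also differed between animals. The 10 tested spinal cord genes stood at 1.03 and 0.995 in WT 1 and WT 2, at -2.15 in WT 3, and at -2.80, -2.35 and -1.91 in the dt27J animals, with summed levels of 1.95 to 28.1 in WT and 0.992 to 1.14 in dt27J. The spinal cord markers Lhx5, Slc6a5 and Mog were well above background on none of the dt27J arrays. Each was above it on at least 1 WT array, but none had a probe above it on all 3. They were therefore not tested and are not among the 10. Of the 10 tested spinal cord genes only Gpr17 was called lower. The release genes had a median of 0.01 in WT 3. In an alternative added after seeing the data, the 3 dt27J animals against WT 3 alone gave a median of -0.70 over the 34 genes. It had a WT group of 1 animal and no date term. WT 3 is of the second date and dt27J 1 and dt27J 2 are of the first, so genotype and date are mixed in it. The median was -0.45 for dt27J 3 against WT 3. All 12 skeletal muscle genes were positive, with a median of 1.95 and summed levels of 25.3 to 94.2 in WT and 86.6 to 197 in dt27J, and 4 of them, Tcap, Tnnt3, Mb and Myh1, were called higher. The satellite glia and Schwann cell list had a median of -0.08 with 8 of 13 genes negative and 2, Egr2 and Cdh19, called higher. The vessel (8 genes), fibroblast (7), macrophage (6) and erythroid (4) lists had medians of 0.73, 0.87, 0.36 and 0.30. In the same order, the medians were 0.78, 1.66, 0.18 and 0.82 within the first date. Within the second date they were 0.70, -0.14, 0.07 and -0.37. Tek was the only vessel gene called higher and Aif1 the only macrophage gene. Aif1 was also the only macrophage gene with an unadjusted limma p under 0.05. No fibroblast or erythroid gene was called. Called markers named here were chosen after their values were seen. The part of neuron, spinal cord, muscle and other cell content in the differences of the release genes was not tested.

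**Figure D5:**
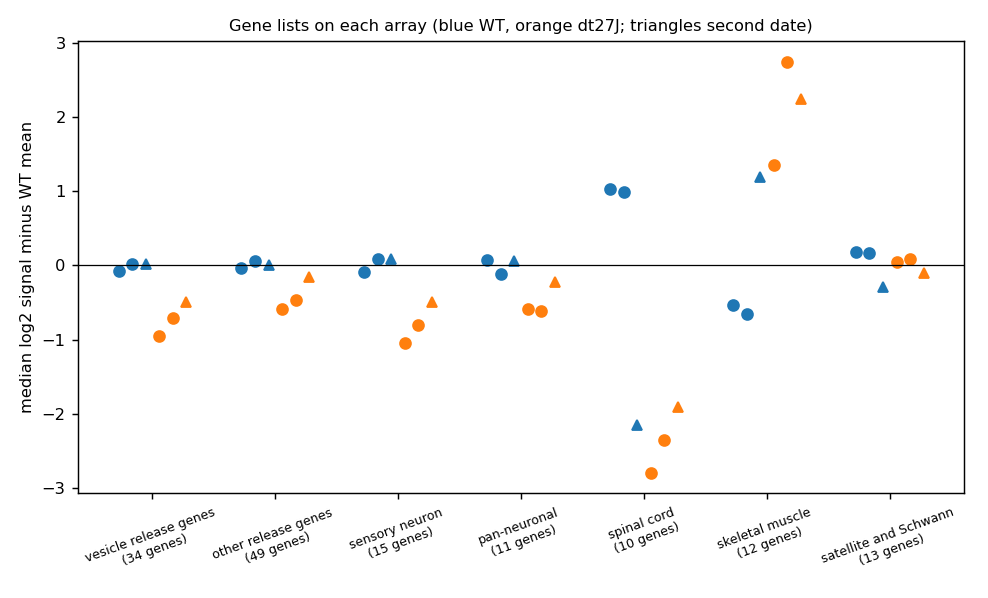
Median log2 signal of 7 gene lists on each array, as the difference from the WT mean of each gene, with WT in blue, dt27J in orange, circles for the first date and triangles for the second. The release genes and the sensory neuron markers are near 0 in all WT arrays and between -0.49 and -1.04 in dt27J, while the spinal cord genes are high in WT 1 and WT 2 only.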

How the data were processed

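The members and gene lists were chosen with earlier results of these data known. The deposited values are spot intensities, background-subtracted within each array by Agilent Feature Extraction 10.5.1.1, per the file headers. The authors' deposited table holds log2 values, centred on each probe over the arrays by comparison with the scanner files, and was used only as an alternative. How it was normalized is not given in the sources.

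The log2 intensity minus each array's 75th percentile (a signal of 369.5 to 580) was used. Control spots and outlier spots were left out, and spots of a probe were averaged. Testing was limited to the 26248 of 41174 probes that the scanner software put well above background on each array of 1 genotype or both. Of the 58 release gene probes, 56 met this on all 6 arrays, and none was saturated. The array files give accessions, and names came from a RefSeq table of GRCm38.p6, which named 19381 tested probes (73.8%). The array's annotation is of another build, so probes have no coordinates here.

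Genotype was tested with limma 3.58.1 in R 4.3.3 with date as a block, and p values were adjusted over all tested probes. Genotype by date was a separate fit. The script was tested on simulated data. By the naming rule every member may be named. Of other release genes those were named that were called or, in a direction with none, the 3 probes with the smallest p. Precision is limited by the number of arrays (3 residual degrees of freedom plus 3.74 from the prior). Scaling, background, date or replicate block, filter and omitted arrays were varied.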

Additional observations from a re-analysis of the deposited data

Results flagged for a closer look

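The brighter Rab3b probe differed between the dates, by a test of the genotype by date interaction (-3.44, limma, adjusted p 0.0449 over all tested probes). Within the first date the difference was 1.19 and within the second -2.25. The signal was 1.32 and 1.11 in WT 1 and WT 2 against 2.11 and 2.69 in dt27J 1 and dt27J 2, and 2.37 in WT 3 against 0.12 in dt27J 3. The dimmer Rab3b probe had the same order of signs, at 0.95 and -0.69, with an interaction of -1.63 and an adjusted p of 0.247. The second date holds 1 animal a genotype, so date and animal cannot be told apart.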

How the results depend on the processing

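The median difference of the release gene probes was negative under every alternative run, between -0.83 and -0.40, and 27 to 31 genes were negative. The runs held 58 probes of 34 genes. Only the run on probes above background on all 6 arrays held fewer, 56, with no Doc2b probe. The count of called probes did move. Of the release gene probes 2 were called in the fit reported, 1 after quantile normalization, 13 with normexp when extreme local backgrounds were replaced, 4 in the authors' values, 4 among probes above background on all 6 arrays, 0 without the date block (25 at an unadjusted p under 0.05), 0 without a filter on dim probes (24), 32 on the first date alone (28 lower and 4 higher) and, in an alternative added after seeing the data, 0 for WT 3 against all dt27J arrays (6). The same counts over all tested probes were 838 as reported, 358 with normexp, 1438 with normexp when extreme backgrounds were replaced, 14 without the date block, 0 without a filter (8485 at an unadjusted p under 0.05), 6805 on the first date alone and 0 for WT 3 alone (2038). The split of all calls was 494 lower and 344 higher as reported, 440 and 537 after quantile normalization, 97 and 261 with normexp, and 561 and 614 in the authors' values. Leaving out 1 array at a time gave 0 to 32 called release gene probes and 0 to 6805 in all. The count was 0 without WT 1, WT 2 or dt27J 1, 1 without dt27J 2, and 32 without WT 3 or dt27J 3, where the array left alone on its date adds nothing and the fit equals the first date alone. The interaction was called for 0 release gene probes without a filter (27 at an unadjusted p under 0.05).

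With the replicate number as a block in place of the date, 0 release gene probes were called by limma (26 at an unadjusted p under 0.05) and 2 of all tested probes. The deviations of same-numbered arrays correlated at 0.219, -0.152 and 0.0625. The highest correlation of each WT array with a dt27J array of another number was 0.228, 0.207 and -0.0401. With 3 arrays a genotype these values cannot decide if the numbers pair the animals. WT 3 and dt27J 3 do share the second date.

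The genes that changed sign had reported differences between -0.19 and 0.40. With normexp Syn2 was at 0.0225 and Rims2 at -0.15, and with extreme backgrounds replaced Unc13b was at -0.0029. On the first date alone Syn2 was at 0.15, Cplx2 at 0.15 and Rims2 at -0.40. For WT 3 against all dt27J arrays Unc13b was at -0.20, Rab3b at -0.73 and Doc2b at -0.21. Over single arrays left out, Syn2 ran from -0.36 to 0.15, Unc13b from -0.10 to 0.22, Cplx2 from -0.33 to 0.15, Rab3b from -0.45 to 1.19 and Rims2 from -0.40 to 0.30. The causes were not tested.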
